A study of Mus musculus with 26 samples.

Results

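The genes of retinoic acid supply and response were followed in adult mouse testis. They are 10 genes chosen by name, Rdh10, Rdh11, Aldh1a1, Aldh1a2, Crabp1, Crabp2, Cyp26a1, Cyp26b1, Rara and Rarg, out of 51124 genes in the deposited table, of which 34847 were above 0 in at least 1 library. The study put target sites for piR-A, a piRNA of pachytene spermatocytes, into the 3′UTR of Ythdc2 to ask what PIWI slicing does to an mRNA in the animal. Total RNA of whole testes was sequenced after removal of ribosomal RNA for 3 genotypes with 2 libraries each, and the labels give a separate mouse for each library. WT mice carried no insert (libraries N1 and N2). Mice of the 10xPerf line carried 10 sites with full complementarity to piR-A (N3 and N4), and mice of the 10xBulge line carried 10 sites that mismatch the piRNA at positions 10 and 11 (N5 and N6). Both lines were made with CRISPR/Cas9 on the B6D2F1/J hybrid background and were kept as homozygotes. Each genotype was a single line, and neither the age in days nor littermate controls are given in the sources used here, so genotype, line and mouse cannot be told apart.

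Retinol that enters the testis is oxidised to retinal by retinol dehydrogenases and then, irreversibly, to retinoic acid by the ALDH1A enzymes. Retinoic acid is carried in the cytosol by the CRABP proteins, cleared by the CYP26 hydroxylases, and sensed in the nucleus by the RAR receptors, which pair with RXR receptors on the DNA. In the testis retinoic acid is known for driving spermatogonia into differentiation and germ cells into meiosis, and its supply is shared between Sertoli cells, which surround the germ cells, and the germ cells themselves.

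RAR and RXR pairs are known to bind direct repeats of a short half-site, and a repeat with a spacer of 5 bases is their classic element. The promoter windows of RefSeq (GRCm38.p6), which run from 250 bases before to 50 bases after a gene's start, held 8 of the 10 genes, Rdh10 and Crabp2 being the others. They were searched on both strands for 2 half-sites in the same direction and 5 bases apart. A half-site was spelled as AGGTCA or by one of the other forms known from such elements, namely AGTTCA, then GGGTCA and finally GGTTCA. Among the 8 genes the repeat was found in the promoter of Cyp26a1 alone, and among 41 further retinoid genes with a window in that of Rarb alone. The 2 stretches are printed because retinoic acid is known to act on both genes, with the half-sites in capitals.
Cyp26a1: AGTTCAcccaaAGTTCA
Rarb: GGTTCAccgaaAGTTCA
The Cyp26a1 repeat lies at chr19:37697776-37697792 on the minus strand, against the direction of the gene, 32 to 16 bases before its start. The Rarb repeat lies at chr14:16575513-16575529 on the minus strand, along the gene, 53 to 37 bases before its start. Of all 32851 promoter windows, 32 held such a repeat (0.0974%). With a spacer of 1 or 2 bases no repeat was found in the 8 genes, where 0.222% and 0.268% of all windows held one. Of the 41 further genes, Bco1 held the repeat with a spacer of 1, 56 to 44 bases before its start. These are matches of letters and not measured binding.

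The values are read counts per gene that the authors estimated from the reads and scaled for depth, called normalized counts here. The libraries held approximately 41.1 to 61.6 M reads, and 3 reads were worth 2.73 to 3.63 normalized counts. Ythdc2, the gene that carries the sites, lay at 827 and 2412 normalized counts in WT, 1334 and 1136 in 10xPerf and 1202 and 2458 in 10xBulge, so the groups overlapped. The 10xBulge libraries stood apart from the other 4. Of 18 markers of spermatids, the germ cells after meiosis, 17 were called lower than in WT, by the test given with the comparisons. The summed level of the 18 was 25359 to 43698 normalized counts against 826717 to 1064830. In N5 and N6 Odf2 held 14936 and 11153 of that sum and Ldhal6b 22879 and 8475. In the same comparison 11 of 12 Sertoli markers, 6 of 8 Leydig markers and 4 of 6 macrophage markers were called higher. No marker of any list was called between 10xPerf and WT. In whole tissue fewer cells of a type and less RNA per cell cannot be told apart, and this holds for every level given here.

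Compared per kb of transcript within WT, the 10 genes spanned a wide range of levels. Rdh11 (3218 ± 517 normalized counts per kb, SD, n = 2), Aldh1a1 (3080.4 ± 2023) and Aldh1a2 (2241 ± 203) were the most abundant, and their order cannot be given because the Aldh1a1 libraries spanned the other two. Cyp26b1 (1074 ± 157), Rara (554 ± 135), Crabp1 (268 ± 98.2), Rdh10 (168 ± 9.91), Rarg (118 ± 32.6) and Cyp26a1 (44.8 ± 6.05) followed, and no 2 neighbours in this order overlapped between libraries. Crabp2 was close to the detection limit at 2.31 ± 0.45. Of each pair, Cyp26b1 was thus the main CYP26 transcript and Rara the higher of the 2 RAR transcripts in these testes.

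**Figure D1:**
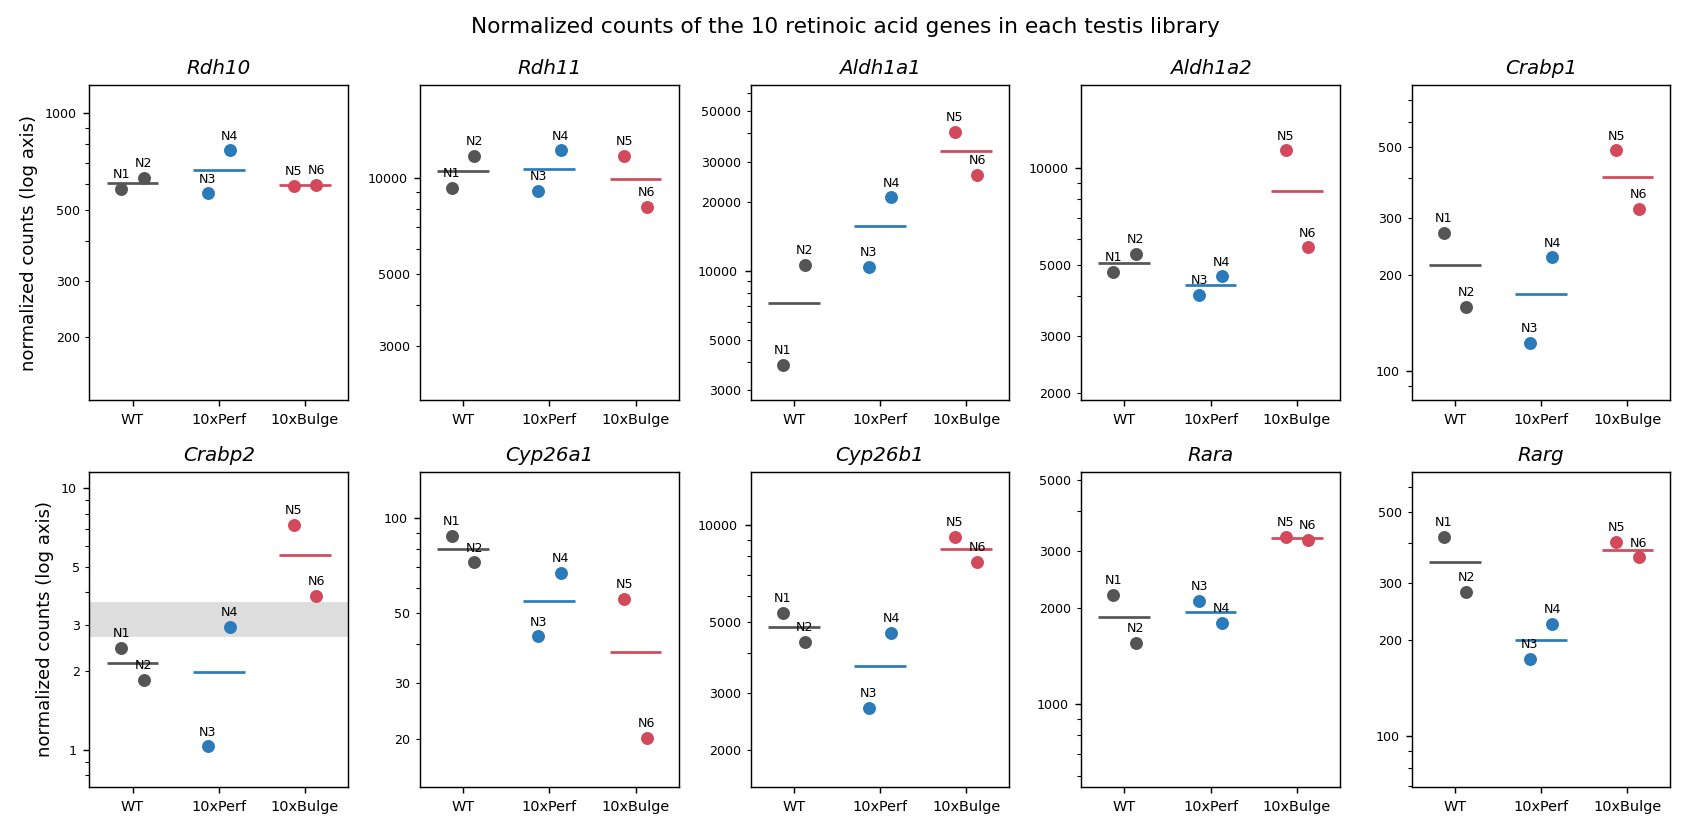
Normalized counts (log axis) of each gene in the 6 testis libraries, by genotype, with a point per library and a bar at the mean of each genotype. The grey band in the Crabp2 panel spans 2.73 to 3.63, the worth of 3 reads. Aldh1a1 reaches 26344 to 40677 in 10xBulge, above all other libraries, while Rdh10 stays between 562 and 765 throughout.

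The comparison of 10xBulge with WT asks how these genes stand in the line with mismatched sites. Aldh1a1 was the 1 gene of the 9 tested that passed the threshold, and it was 5.09-fold higher in 10xBulge. Aldh1a2, Cyp26b1, Crabp1 and Rara also lay above both WT libraries in both 10xBulge libraries, and Cyp26a1 lay below them, without passing. The tests were made with limma on log2(normalized count + 1) over all 23782 genes that reached 10 normalized counts in 2 or more libraries, with an adjusted p (Benjamini-Hochberg) under 0.1 as the threshold. Crabp2 did not reach that level and was not tested. The share of members called higher, 1 of 9 (11.1%), was close to the 11.4% of all tested genes, and none was called lower against 23.0%, so the count says nothing particular about the retinoic acid genes. Without overlap between the genotypes 5 of 9 were higher and 1 lower, against 28.9% and 33.2% of all tested genes. Scaled by library totals, which moved the median of all genes to 0.35 and made 54.7% of calls higher in place of 33.2%, 5 of 9 members were called higher against 24.3% of all tested genes. The median log2 fold change in the deposited scaling was 0.66 over the 9 genes and -0.03 over all genes.

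Neither retinol dehydrogenase gene separated the genotypes. Rdh10 (chromosome 1), for the enzyme that is needed in the embryo to make retinal, measured 579 and 629 normalized counts in WT, 562 and 765 in 10xPerf and 593 and 598 in 10xBulge. Rdh11 (chromosome 12), which encodes an enzyme that reduces retinal and other aldehydes, measured 9304 and 11688 in WT, 9100.1 and 12168 in 10xPerf and 11728 and 8106 in 10xBulge. All 3 genotypes overlapped for both genes. The log2 fold change of 10xBulge over WT was -0.02 for Rdh10 (95% confidence interval -0.89 to 0.85, limma adjusted p = 0.978) and -0.10 for Rdh11 (-1.03 to 0.84, adjusted p = 0.891), so changes of nearly 2-fold in either direction lie within the intervals.

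Aldh1a1 (chromosome 19), which encodes a retinal dehydrogenase known from Sertoli and Leydig cells, measured 3890.3 and 10637 normalized counts in WT, 10451 and 20968 in 10xPerf and 40677 and 26344 in 10xBulge. Both 10xBulge libraries were above the other 4, and the WT libraries differed from each other more than those of any other genotype, by 1.45 on the log2 scale. The log2 fold change of 10xBulge over WT was 2.35 ± 0.58 (SE, 95% confidence interval 1.03 to 3.66, limma adjusted p = 0.0167). Without library N1, the lowest of all, the log2 fold change was 1.62. That fit leaves 1 WT library, so no call is read from it. Aldh1a7, a close paralogue on the same chromosome picked after its values were seen, took 5.03% to 6.18% of the summed counts of the pair in every library, so the counts were divided between the 2 genes in similar shares throughout.

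Aldh1a2 (chromosome 9) encodes the retinal dehydrogenase known from germ cells. It measured 4749 and 5398 normalized counts in WT, 4042 and 4604 in 10xPerf and 11365 and 5666 in 10xBulge. The 2 10xBulge libraries differed by 1.00 on the log2 scale, and N6 was just above the WT libraries. The log2 fold change over WT was 0.66 ± 0.44 (SE, limma adjusted p = 0.301). Without N6 it was 1.17.

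Both binding proteins were at their highest in 10xBulge, Crabp2 near the detection limit. Crabp1 (chromosome 9), whose protein holds retinoic acid in the cytosol and is known from spermatogonia, measured 270.3 and 159 normalized counts in WT, 123 and 227 in 10xPerf and 489 and 321 in 10xBulge. Both 10xBulge libraries were the highest, with a log2 fold change over WT of 0.93 ± 0.50 (SE) that did not pass (limma adjusted p = 0.203). Crabp2 (chromosome 3), whose protein delivers retinoic acid to the nucleus, measured 2.45 and 1.85 in WT, 1.03 and 2.94 in 10xPerf and 7.23 and 3.86 in 10xBulge. The first 4 values are under the worth of 3 reads of their own library, and no fold change is given.

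The 2 breakdown enzymes lay on opposite sides of WT. Cyp26b1 (chromosome 6), the main retinoic acid hydroxylase of testis, measured 5329 and 4330.1 normalized counts in WT, 2689 and 4619 in 10xPerf and 9180.1 and 7675 in 10xBulge. Cyp26a1 (chromosome 19), with the promoter repeat printed above, measured 87.9 and 72.6 in WT, 42.3 and 67.2 in 10xPerf and 55.4 and 20.1 in 10xBulge. Cyp26b1 was thus highest in both 10xBulge libraries, while Cyp26a1 was highest in both WT libraries. The log2 fold changes over WT were 0.81 ± 0.42 (SE, limma adjusted p = 0.191) for Cyp26b1 and -1.23 ± 0.60 (adjusted p = 0.164) for Cyp26a1, and neither passed. The 10xBulge libraries of Cyp26a1 differed by 1.42 on the log2 scale. Without N5 the log2 fold change of Cyp26a1 was -1.93.

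RARα, a receptor known from Sertoli cells, and RARγ, known from spermatogonia, are the retinoic acid receptors of the list. Rara (chromosome 11) measured 2197 and 1552 normalized counts in WT, 2099 and 1789 in 10xPerf and 3319 and 3262 in 10xBulge. Rarg (chromosome 15) measured 418 and 282 in WT, 174 and 225 in 10xPerf and 403 and 362 in 10xBulge. For Rara the 10xBulge libraries were the highest and nearly equal, with a log2 fold change over WT of 0.83 ± 0.38 (SE, limma adjusted p = 0.145). For Rarg the 10xBulge libraries lay between the WT libraries (0.15 ± 0.42, adjusted p = 0.823), and the 10xPerf libraries were the lowest.

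**Figure D2:**
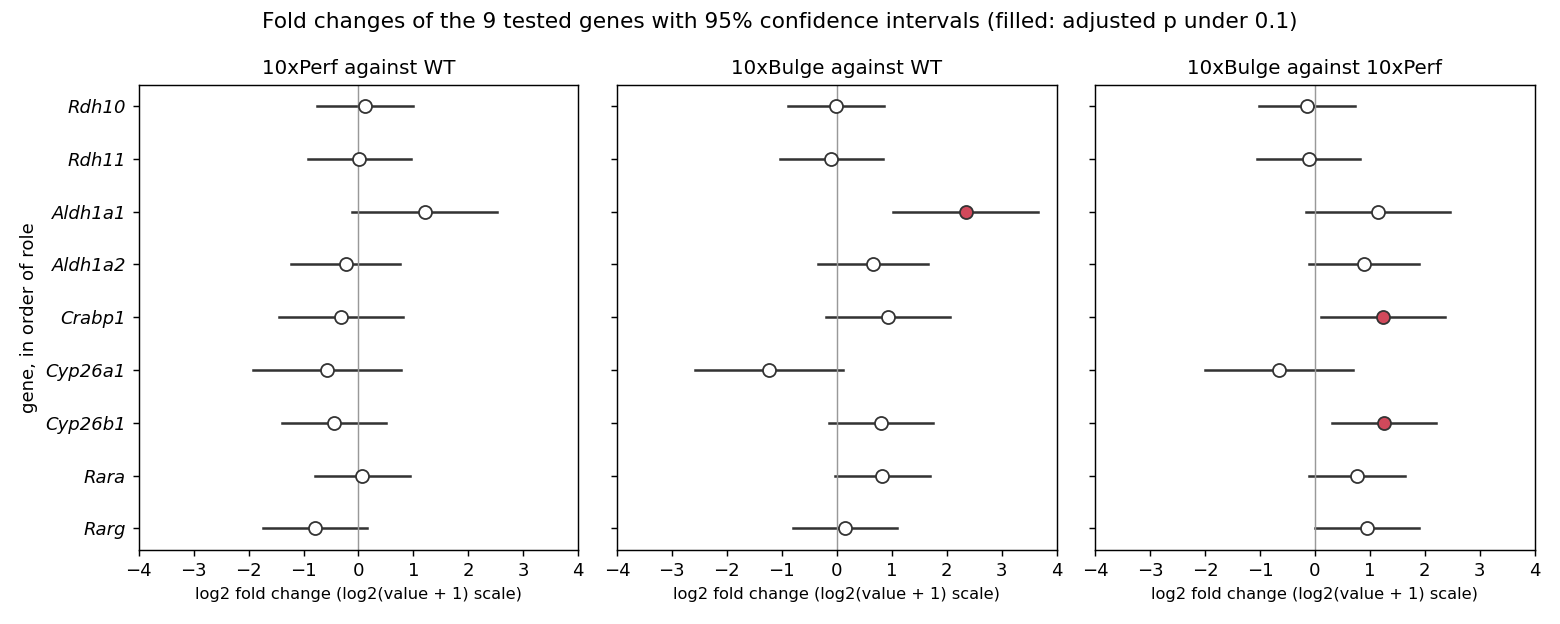
Log2 fold change (horizontal axis, log2(value + 1) scale) with its 95% confidence interval for the 9 tested genes in each comparison, filled where the adjusted p was under 0.1. Aldh1a1 at 2.35 is the filled gene for 10xBulge against WT, Crabp1 and Cyp26b1 are filled for 10xBulge against 10xPerf, and none is filled for 10xPerf against WT.

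The comparison of 10xPerf with WT asks how the same genes stand in the line with perfectly paired sites. None of the 9 tested genes passed in limma, where 0.959% of all tested genes were called in either direction. None had an unadjusted p under 0.05, where 1448 of all 23782 tested genes did. The largest values were 1.20 ± 0.58 on the log2 scale for Aldh1a1 (SE, 95% confidence interval -0.11 to 2.52, adjusted p = 0.853) and -0.79 ± 0.42 for Rarg (-1.74 to 0.16, adjusted p = 0.853). The Aldh1a1 libraries overlapped, since N3 at 10451 was below N2 at 10637, whereas both 10xPerf libraries of Rarg were below both WT libraries. The intervals leave room for changes of over 2-fold in these 2 genes.

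The 2 knock-in lines differ by the mismatches in their sites, and also by line and mouse. Between them Cyp26b1 and Crabp1 were called higher in 10xBulge and none of the 9 genes was called lower. The log2 fold change was 1.25 ± 0.42 for Cyp26b1 (SE, 95% confidence interval 0.30 to 2.20, limma adjusted p = 0.0534) and 1.24 ± 0.50 for Crabp1 (0.12 to 2.37, adjusted p = 0.0941). Rarg (0.94, limma adjusted p = 0.125), Aldh1a2 (0.90, 0.161), Rara (0.76, 0.171) and Aldh1a1 (1.14, 0.174) had log2 fold changes above 0 without passing. The count of 2 of 9 (22.2%) compares with 12.9% of all tested genes called higher and 24.1% called lower. Scaled by library totals it was 6 of 9, against 21.5% of all tested genes called higher, with 49.5% of calls higher in place of 34.9%. Both calls were lost without N3, which had the lowest level of both genes (adjusted p = 0.341 and 0.470), and without N5 (0.141 and 0.275), and that of Crabp1 was lost without any 1 of the other libraries but N6 (0.120 to 0.123). Aldh1a2 passed without N6 (adjusted p = 0.0402). This comparison shares libraries with both comparisons to WT, which share the WT libraries with each other.

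Ratios within a library do not change when all its genes are scaled by a common factor. Removal of the GC trend, which shifts genes by their GC content, can change them. Per kb, Cyp26b1 exceeded Cyp26a1 by 24.2 and 23.8 times in WT, by 25.3 and 27.4 times in 10xPerf and by 66.0 and 152 times in 10xBulge. The 4 libraries of WT and 10xPerf were thus close to each other, and both 10xBulge libraries were above them. Aldh1a1 stood at 0.786 and 1.89 times the level of Aldh1a2 in WT, at 2.48 and 4.37 times in 10xPerf and at 3.44 and 4.46 times in 10xBulge, so the ratio of the 2 enzymes was lowest in WT and overlapped between the knock-in lines. Rara stood at 4.59 and 4.81 times the level of Rarg in WT, 10.5 and 6.95 times in 10xPerf and 7.18 and 7.87 times in 10xBulge, again lowest in WT. Rdh11 over Rdh10 ran from 14.9 to 21.8 and overlapped between all genotypes. With 2 libraries a genotype, these ratios were given no test.

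**Figure D3:**
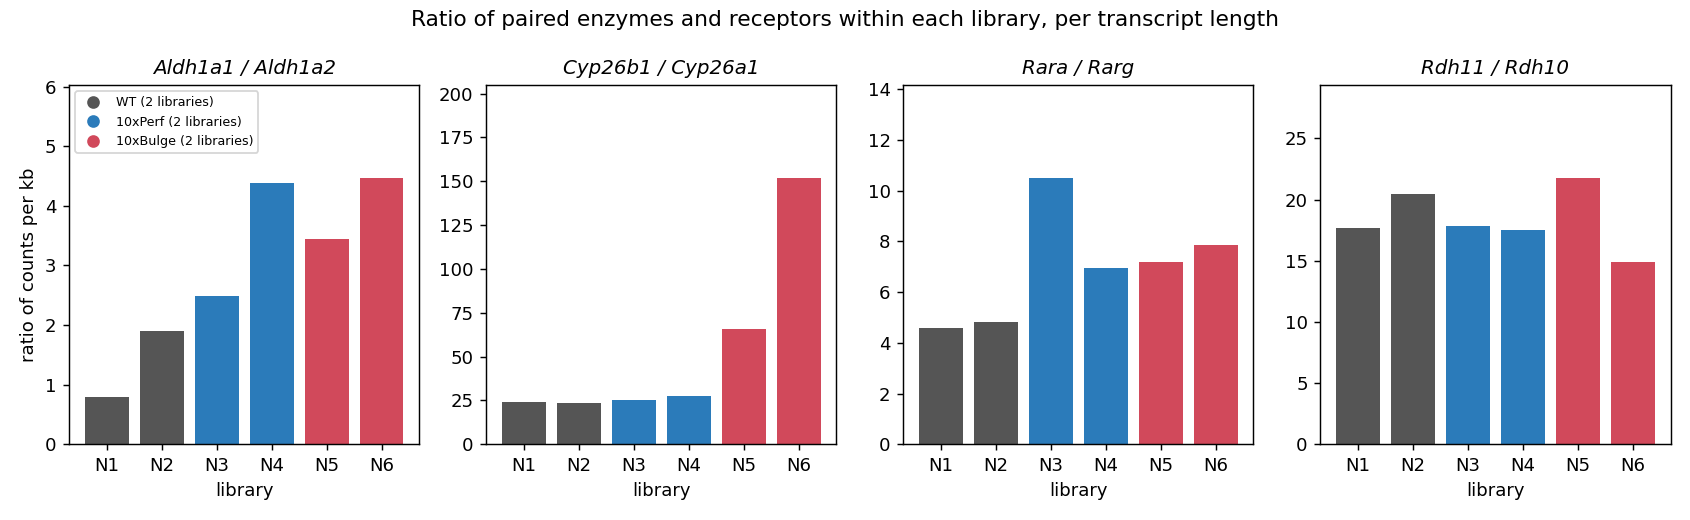
Ratio of normalized counts per kb (vertical axis) of related genes within each library, a bar per library coloured by genotype. Cyp26b1 over Cyp26a1 is 66.0 and 152 in the 10xBulge libraries and 23.8 to 27.4 in the other 4, and Rdh11 over Rdh10 overlaps between genotypes.

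Levels of the genes were set beside the marker lists within each library, because Sertoli and Leydig markers were higher in 10xBulge too. The summed Sertoli markers ran from 72480 to 79463 normalized counts in WT and from 136814 to 276959 in 10xBulge. Clu held most of that sum, with 48083 and 46737.5 in WT and 196126 and 75652 in 10xBulge. The summed Leydig markers ran from 54612 to 77479 in WT and from 150962 to 319236 in 10xBulge. No marker of any list was at 0 in a library. Relative to the mean Leydig marker on the log2 scale, Aldh1a1 measured 0.43 and 1.16 in WT, 1.68 and 1.91 in 10xPerf and 0.98 and 1.58 in 10xBulge, so 10xBulge and WT overlapped. Relative to the mean Sertoli marker it measured 1.34 and 2.54 in WT, 2.89 and 3.37 in 10xPerf and 2.98 and 2.89 in 10xBulge, and both knock-in lines were above WT. Aldh1a1 was also higher in 10xBulge than in WT without overlap relative to spermatocyte, spermatogonial and peritubular myoid markers, by 2.34, 1.99 and 2.05 on average. The part of cell makeup in the Aldh1a1 result was not tested.

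Most of the other genes lay lower beside the Sertoli and Leydig lists. Aldh1a2 and Cyp26b1 were lower relative to Sertoli markers in 10xBulge than in WT without overlap, by 0.69 and 0.55 on average on the log2 scale, although their own values lay above WT. Rdh10, Rdh11 and Rarg, whose own values overlapped, were also lower relative to Sertoli markers without overlap, by 1.37, 1.45 and 1.20. Relative to Leydig markers Aldh1a2, Cyp26b1, Rdh10, Rdh11 and Rarg were lower without overlap too, by 1.20, 1.06, 1.88, 1.96 and 1.71. Relative to peritubular myoid markers, of the muscle-like cells around the tubules and with 0 of 6 called, Cyp26b1 measured 2.89 and 3.17 in WT and 3.23 and 3.86 in 10xBulge. Relative to spermatocyte markers, 1 of 14 called in each direction, Rara measured 0.12 and -1.07 in WT and 0.44 and 0.27 in 10xBulge. Relative to Sertoli markers it measured 0.51 and -0.23 in WT and -0.63 and -0.12 in 10xBulge, which overlapped, as it did relative to Leydig markers. Relative to spermatogonial and peritubular myoid markers Rara was higher in 10xBulge without overlap, by 0.48 and 0.54. Cyp26b1 was higher likewise relative to spermatocyte and spermatogonial markers, by 0.80 and 0.45. Crabp1 overlapped relative to Sertoli, Leydig and spermatocyte markers. It was higher without overlap relative to spermatogonial and peritubular myoid markers, by 0.58 and 0.64. Cyp26a1 was lower without overlap relative to Sertoli, Leydig, spermatogonial and peritubular markers, by 2.58, 3.09, 1.58 and 1.52, and overlapped relative to spermatocyte markers. Of 10 spermatogonial markers 1 was called higher and 1 lower.

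**Figure D4:**
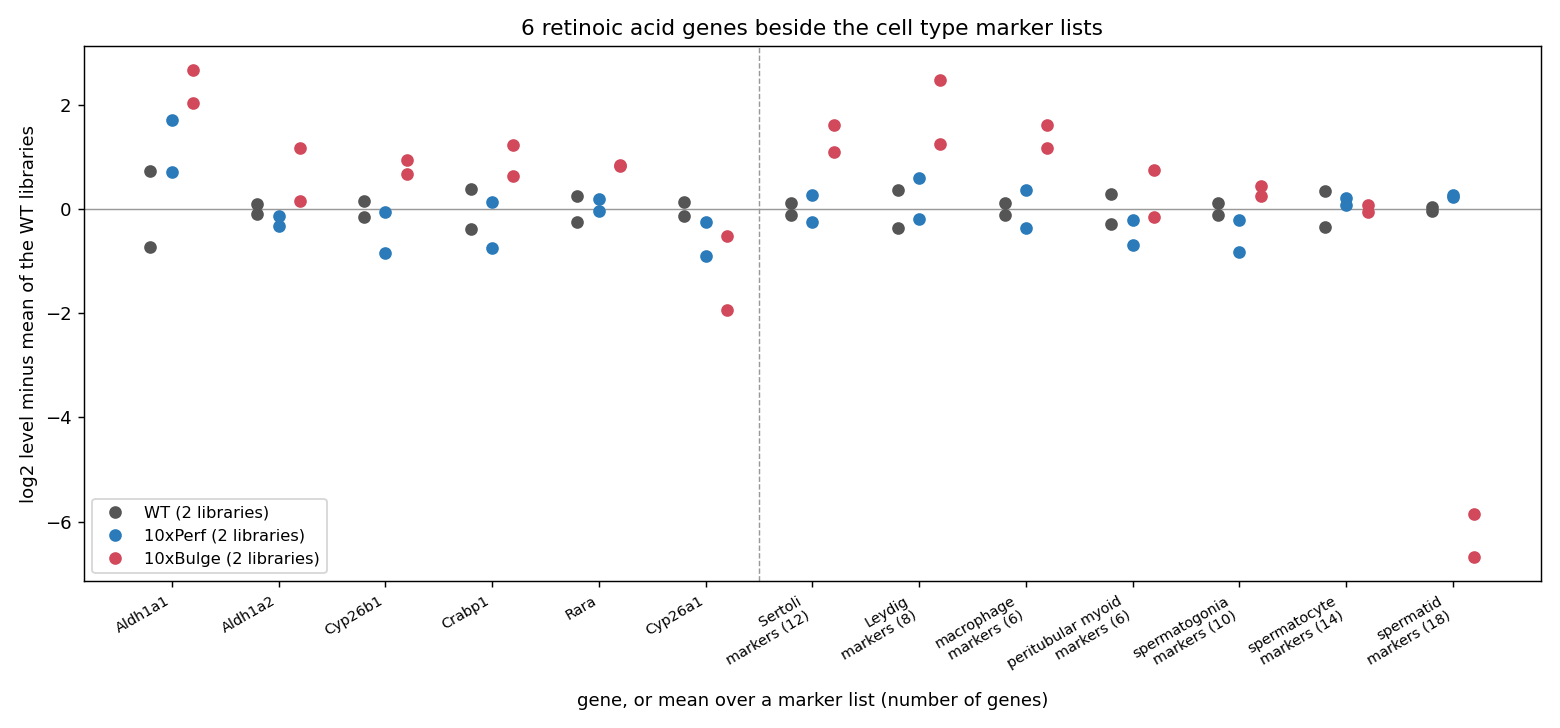
Log2 level minus the mean of the WT libraries (vertical axis) for 6 of the genes and for the mean of each marker list, a point per library coloured by genotype. The 10xBulge points (N6 and N5) lie at 2.03 and 2.66 for Aldh1a1 and at 1.25 and 2.48 for the Leydig markers. The 10xPerf points (N3 and N4) lie at 0.70 and 1.70 for Aldh1a1 and at -0.18 and 0.59 for the Leydig markers. The 10xBulge points of Cyp26a1 lie below 0, and those of the spermatid markers at -6.68 and -5.85.

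The other genes of the pathway, 54 in the table and 47 of them tested, were read from 5 lists by role. In 10xBulge 13 of the 47 were called higher than in WT (27.7%, against 11.4% of all tested genes) and 6 lower (12.8%, against 23.0%). Of the alcohol and retinol dehydrogenases and related enzymes 5 of 16 rose and 1 fell, and of the genes known to respond to retinoic acid 3 of 8 rose and 1 fell. Uptake and storage genes and the receptors with their cofactors had 2 called in each direction, of 11 tested in each list. Fabp5, which encodes a fatty acid binding protein that also carries retinoic acid, was the 1 tested gene of the remaining list and rose. Scaled by library totals 18 of the 47 were called higher, against 24.3% of all tested genes, and 6 lower, against 4792 of all 23782 tested genes. Against 10xPerf 11 of the 47 were higher (23.4%, against 12.9% of all tested genes) and 6 lower (12.8%, against 24.1%). With library totals 16 were higher, against 21.5% of all tested genes, and 6 lower, against 5206 of all 23782 tested genes. Between 10xPerf and WT none of the 47 passed in limma, and 3 had an unadjusted p under 0.05, as did 1448 of all 23782 tested genes.

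The 12 pathway genes with the smallest adjusted p were enzymes, binding proteins, receptors and responders. Bco1, which encodes the dioxygenase that splits beta-carotene into retinal, measured 743 and 955 normalized counts in WT, 1537 and 1184 in 10xPerf and 15.2 and 13.3 in 10xBulge, a log2 fold change over WT of -5.79 (limma adjusted p = 1.26e-05). It fell furthest of the pathway genes tested, and its 10xPerf libraries were the highest. The alcohol dehydrogenase genes Adh5 (2.42 on the log2 scale, adjusted p = 0.00366) and Adh1 (2.08, 0.00594) and the dehydrogenase gene Dhrs7 (1.90, 0.0101) rose. Relative to Leydig markers Adh1 and Dhrs7 overlapped between 10xBulge and WT, while Adh5 was higher in 10xBulge without overlap, by 0.56 on average on the log2 scale. Each was higher without overlap relative to Sertoli, spermatocyte, spermatogonial and peritubular myoid markers. Beside Sertoli markers the mean difference was 0.73 for Adh1, 0.55 for Dhrs7 and 1.07 for Adh5. Aldh8a1, for an enzyme described as oxidising 9-cis-retinal, fell from 25.4 and 30.7 normalized counts to 7.0 and 5.84 (adjusted p = 0.0449), and Rbp3, for a retinoid binding protein of the retina, fell from 24.5 and 16.7 to 2.73 and 3.89, close to the worth of 3 reads (adjusted p = 0.0324). The log2 fold change of Aldh8a1 was -1.97, and it was -2.10 without N1 and -1.84 without N2. That of Rbp3 was -2.31, and it was -2.05 without N1.

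Of the receptors outside the 10 genes, 2 fell. Rarb, the third RAR gene and the second with the promoter repeat, measured 60.3 and 56 normalized counts in WT, 58.3 and 28.6 in 10xPerf and 5.14 and 9.73 in 10xBulge (log2 fold change -2.86, limma adjusted p = 0.00746). Rxrg, for one of the RXR partners, measured 118 and 64.4 in WT, 95.2 and 137 in 10xPerf and 6.64 and 5.17 in 10xBulge (-3.68, limma adjusted p = 0.000903). Rarb and Rxrg were lower without overlap relative to Sertoli, Leydig, spermatocyte, spermatogonial and peritubular myoid markers. Beside spermatocyte markers the mean difference was -2.87 for Rarb and -3.69 for Rxrg. No gene was set beside the spermatid markers, whose mean log2 level in 10xBulge minus WT was -6.26. Rarb was also the lowest of the 3 RAR genes in WT, at 18.7 ± 0.981 normalized counts per kb (SD, n = 2).

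Genes known to respond to retinoic acid did not move one way. Kit, the receptor of differentiating spermatogonia and also a gene of Leydig cells, measured 1652 and 1473 normalized counts in WT and 5556 and 4738 in 10xBulge (log2 fold change 1.72, limma adjusted p = 0.0127). Tgm2, for a transglutaminase, rose by 1.57 (limma adjusted p = 0.0439), and Fabp5, of the binding list, by 2.13 (0.0132). The log2 fold change of Tgm2 was 1.18 without N2 and 1.08 without N5. Relative to Leydig markers Kit and Fabp5 overlapped between 10xBulge and WT. Both were higher in 10xBulge without overlap relative to Sertoli, spermatocyte, spermatogonial and peritubular myoid markers. Beside Sertoli markers the mean difference was 0.37 for Kit and 0.78 for Fabp5 on the log2 scale. Rec8, the meiotic cohesin, fell from 4185 and 2507 to 886 and 285 (-2.69, limma adjusted p = 0.00659). Rec8 was lower without overlap relative to these markers and to Leydig markers, with a mean difference of -2.69 beside spermatocyte markers. Stra8, the gatekeeper of meiosis, and its partner Meiosin were picked after their values were seen: Stra8 measured 212 and 787 in WT, 401 and 821 in 10xPerf and 1441 and 596 in 10xBulge, which overlapped (1.18, adjusted p = 0.243), and Meiosin did not pass either (0.65, adjusted p = 0.260). The log2 fold change of Stra8 was 2.12 without N2 and 1.82 without N6. Meiosin passed in limma with library totals (1.03, adjusted p = 0.0460), where 24.3% of all tested genes were called higher.

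**Figure D5:**
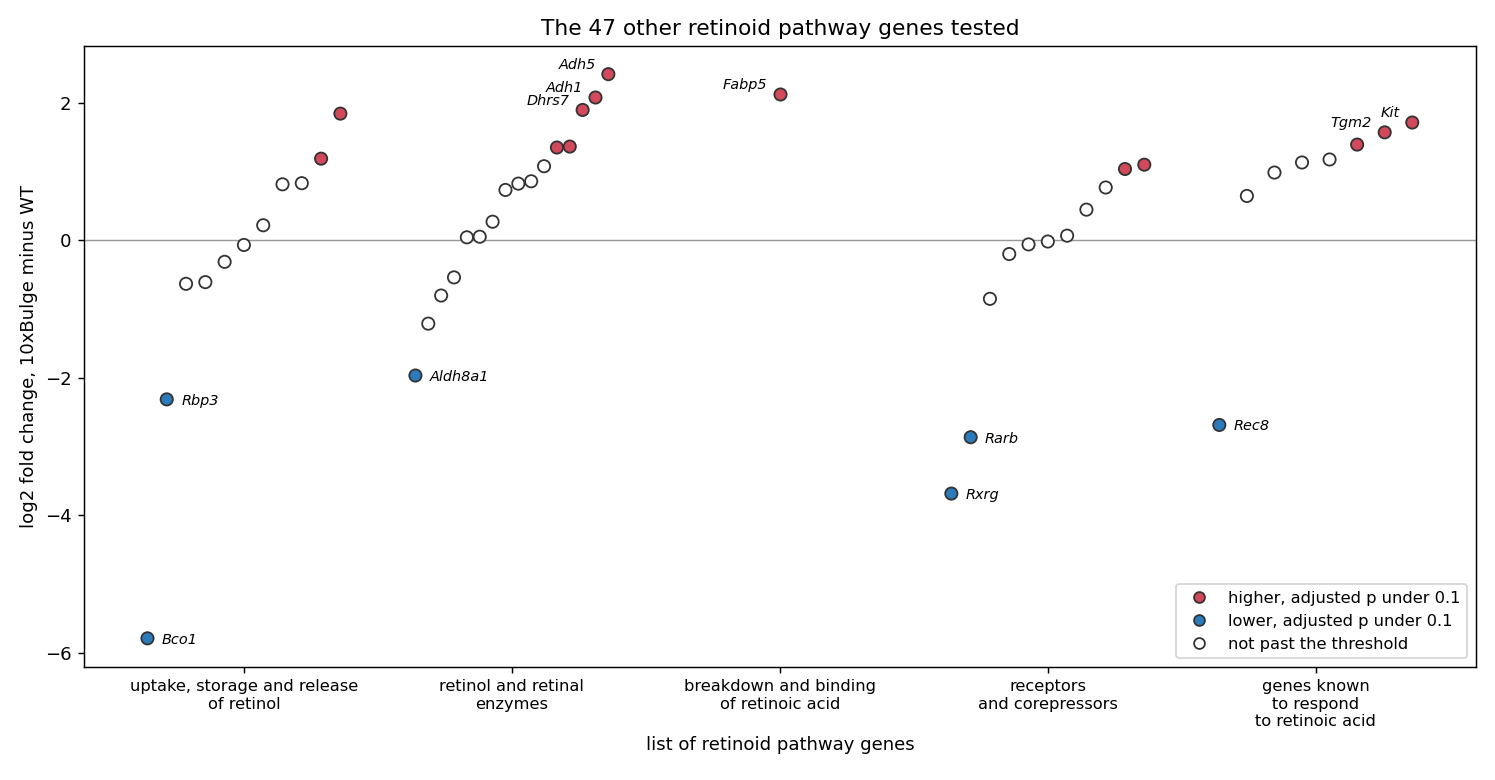
Log2 fold change of 10xBulge over WT (vertical axis) for the 47 other retinoid pathway genes tested, a point per gene grouped by list and coloured where the adjusted p was under 0.1. The 13 genes called higher lie between 1.04 and 2.42, and the 6 called lower reach -5.79 for Bco1.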

How the data were processed

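Deposited values were taken for the 6 libraries of total RNA from whole testes. Per the study's methods, the authors assigned the reads to transcripts of GRCm39 (Ensembl release 104) with salmon, including its correction for GC bias, and scaled the gene counts with DESeq2. These normalized counts are the deposited signal. They are estimates and not whole reads, so no count model was fitted. The deposited table also holds the authors' log2 fold changes and adjusted p-values, which were not used. No per-sample column was left out as unmapped (0). The 20 libraries of RNA bound by MILI or MIWI were not used here.

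A value of 1 was added, log2 was taken, and all 6 libraries were fitted by genotype in limma 3.58.1 (R 4.3.3) with a mean-variance trend, for genes that reached 10 in 2 or more libraries. Adjusted p-values (Benjamini-Hochberg) cover all genes tested and the threshold was 0.1. The script was tested on simulated data. Tables and plots were made in Python 3.11.15. The most frequent non-zero value under 5 in each library gave the approximate worth of a read. Lengths and GC content came from the longest transcript of GENCODE M21 (GRCm38, for 99.3% of the genes tested). Promoter sequences came from RefSeq (GRCm38.p6). The 10 genes, the 5 pathway lists and the marker lists were chosen with earlier results of these data known. Pathway genes were named by the smallest adjusted p, up to 12. Depth was approximately 41.1 to 61.6 M reads per library, and intervals cover the spread between libraries only. Alternatives were other scalings, filters, pseudocounts (0.1 and 10), fits of the 2 genotypes compared, no trend, removal of the GC trend (loess span 0.3), a threshold of 0.05 and leaving out each library.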

Additional observations from a re-analysis of the deposited data

How the results depend on the processing

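In 10xBulge against WT the count of retinoic acid genes past the threshold was 1. Scaled by library totals it was 5 (Aldh1a1, Aldh1a2, Crabp1, Cyp26b1 and Rara). With the GC trend removed it was 4 (Aldh1a1, Crabp1, Cyp26b1 and Rara). In that setting 4729 of all 23782 tested genes were called higher in place of 2712, and 45% of calls were higher. The cause of these differences was not tested. Leaving out 1 library leaves a lone library in a genotype, which is assumed to vary like the others. Calls of such fits are not counted here. Aldh1a1 stayed higher in all 15 alternative fits (log2 fold change 1.62 to 3.07). It was called in every setting that kept both libraries of WT and of 10xBulge. In 10xBulge against 10xPerf the count was 2. It was 6 with library totals, 4 with the upper quartile, 4 with the GC trend removed, and 0 at a threshold of 0.05. The share of all genes at that threshold was not computed. With library totals, upper quartile and GC removal 5108, 3778 and 4989 of all 23782 tested genes were called higher, in place of 3077. The member count was 1 with genes of at least 1 in at least 1 library and 1 with a pseudocount of 0.1. It was also 1 with only the 2 genotypes compared and 1 without the trend. Leaving out 1 library gave 0 to 3. No setting called a member in 10xPerf against WT.

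Of the other pathway genes in 10xBulge against WT, 13 were called higher but 7 at a threshold of 0.05, and 6 were called lower but 2 among genes with at least 10 in every library, which leaves out Rxrg, Rarb, Rbp3 and Aldh8a1. Leaving out 1 library gave 5 (without N5) to 13 higher (7 without N1 or N4, 8 without N2 or N3). Against 10xPerf 11 were higher and 6 lower, with 0 to 14 and 2 to 6 on leaving out 1 library, the lowest without N3, and 2 lower among genes with at least 10 in every library.

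Fold changes near 0 changed sign. So did those of Crabp1 in 10xPerf against WT (-0.31) and Cyp26a1 in 10xBulge against 10xPerf (-0.65). In 10xPerf against WT, GC removal gave -0.097 for Rdh10, -0.22 for Rdh11 and 0.049 for Crabp1, and the upper quartile gave -0.052 for Rdh11. Library totals gave 0.36 (Rdh10) and 0.29 (Rdh11) in 10xBulge against WT and 0.11 and 0.14 against 10xPerf, and GC removal 0.054 for Rdh10 against WT and 0.15 and 0.20 against 10xPerf. On leaving out 1 library, values that crossed 0 ran from -0.10 to 0.34 (Rdh10), -0.20 to 0.22 (Rdh11), -0.75 to 0.13 (Crabp1) and -0.18 to 0.32 (Rara) in 10xPerf against WT, from -0.080 to 0.040 (Rdh10), -0.36 to 0.17 (Rdh11) and -0.13 to 0.44 (Rarg) in 10xBulge against WT, and from -0.36 to 0.084 (Rdh10), -0.38 to 0.16 (Rdh11) and -1.36 to 0.055 (Cyp26a1) against 10xPerf. No paired analysis was possible because library numbers differ between genotypes.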
